A study of Mus musculus with 9 samples.

Results

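The Wnt ligand genes Wnt3, Wnt3a, Wnt4, Wnt5a, Wnt6, Wnt7a, Wnt7b, Wnt9a, Wnt10a and Wnt11 were followed across 9 RNA-seq libraries of mouse prostate organoids. These 10 genes were listed by name and are part of the 19 Wnt genes, and of the 49585 genes, that the libraries cover. The cells were basal cells sorted by flow cytometry from the prostate of C57BL/6J mice and grown as organoids, small cell clusters in gel, until day 5. In the BM group (3 libraries) the medium held EGF, the BMP antagonist Noggin, the TGF-β receptor inhibitor A83-01, the ROCK inhibitor Y-27632, B27, N-acetylcysteine and base components, and all groups shared these. The R group (3 libraries) also received R-spondin1 at 500 ng/ml. The RD7 group (3 libraries) received R-spondin1 at 500 ng/ml together with dihydrotestosterone (DHT), a potent androgen, at 100 nM. No Wnt ligand is named among the components added to any of the media, and no group received DHT without R-spondin1. Separate animals, sorts or cultures are not stated for the replicates, so the p-values measure the spread between these libraries, which may be technical.

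Wnt proteins are secreted, lipid-modified signals. The enzyme Porcn attaches the lipid, the carrier Wls takes the ligand to the cell surface, and Frizzled receptors with Lrp5 or Lrp6 receive it. When β-catenin signaling follows, TCF/LEF factors switch on target genes, and R-spondins strengthen this route by keeping Frizzled receptors on the cell surface. Wnt3 and Wnt3a are classic activators of β-catenin, Wnt7a and Wnt7b can use the Reck and Adgra2 co-receptors, and Wnt5a and Wnt11 are best known for signaling without β-catenin, through Ror receptors and the planar cell polarity genes. Wnt4 and Wnt5a are known regulators of epithelial growth in several glands.

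Levels are given in FPKM, which divides the reads of a gene by its length and by the library's size, so that genes can be set side by side. Changes are log2 fold changes of FPKM + 0.5 with their SE, from limma over all 15867 genes with at least 0.5 CPM (reads scaled to a common library total) in at least 3 libraries. A gene was called at a Benjamini-Hochberg adjusted p under 0.05, and plain folds are ratios of mean FPKM. A trend on gene length remained, with longer genes tending to lower log2 fold changes. The Spearman correlation with length was -0.332 in R against BM, -0.221 in RD7 against R and -0.38 in RD7 against BM. The libraries held 6505858 to 24141015 counted reads, with BM 1 the shallowest, so 3 reads of a gene correspond to 0.124 to 0.461 CPM. The basal keratins Krt5, Krt14 and Krt15 were abundant (2397 to 3484, 1751 to 1921 and 3094 to 4721 mean FPKM in the groups). The basal markers Trp63 and Itga6 were at 26.5 to 44.3 and 15.5 to 46.7. Krt15 was called higher in R against BM, and Krt5, Trp63 and Itga6 were called lower in RD7 against R. The luminal keratins Krt8 (652 to 1173) and Krt18 (653 to 963) were abundant as well. Markers of other cell types are given with their values at the end.

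Some of the Wnt genes lie next to each other in the genome (GRCm38, GENCODE M21). Wnt3a (chromosome 11, 59248033 to 59290752, minus strand) and Wnt9a (chromosome 11, 59306928 to 59333552, plus strand) stand head to head, with 16176 bases between their start sites and 0 annotated genes in between. Wnt6 (chromosome 1, 74771892 to 74785322) and Wnt10a (chromosome 1, 74791516 to 74804179) follow each other on the plus strand, 6194 bases apart. Wnt3 (chromosome 11, 103774150 to 103817957) neighbors Wnt9b, 24329 bases away. Wnt4 (chromosome 4, 137277489 to 137299726), Wnt5a (chromosome 14, 28504750 to 28527448) and Wnt11 (chromosome 7, 98835112 to 98855195) are each the only one of the 19 Wnt genes on their chromosome. Wnt7a (chromosome 6, 91363981 to 91411363) and Wnt7b (chromosome 15, 85535437 to 85582473) have their nearest Wnt gene 28021168 and 13188239 bases away.

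RefSeq promoter sequences (GRCm38.p6) were matched for 7 of the 10 genes. The promoters of Wnt3a and Wnt9a are shown because the means of these neighbors moved in opposite directions in R against BM and in RD7 against R. As described further on, the lower Wnt9a in R was not called. Its rise in RD7 against R lost its call in 6 of 17 other fits. Each is printed on its gene's strand, 5′ to 3′, up to the base before the annotated start, with CG dinucleotides in capitals. The Wnt3a stretch is chr11:59290753-59291001 on the minus strand and the Wnt9a stretch is chr11:59306680-59306927 on the plus strand.
Wnt3a: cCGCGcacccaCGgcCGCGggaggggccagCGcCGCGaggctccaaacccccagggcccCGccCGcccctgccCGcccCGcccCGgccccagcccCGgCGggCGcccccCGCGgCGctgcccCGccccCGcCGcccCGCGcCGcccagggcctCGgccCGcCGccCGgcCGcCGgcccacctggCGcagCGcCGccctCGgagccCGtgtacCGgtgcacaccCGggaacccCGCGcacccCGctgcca
Wnt9a: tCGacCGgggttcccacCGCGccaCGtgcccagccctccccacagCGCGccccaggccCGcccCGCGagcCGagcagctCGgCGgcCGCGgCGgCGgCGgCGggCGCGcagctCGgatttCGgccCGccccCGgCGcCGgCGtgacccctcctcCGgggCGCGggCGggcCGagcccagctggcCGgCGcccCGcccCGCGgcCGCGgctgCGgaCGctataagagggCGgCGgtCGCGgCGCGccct
Both windows are dense in CG. In the 250 bases before the RefSeq start, Wnt3a held 41 CG dinucleotides and 87.6% G or C, and Wnt9a held 48 and 84.4%. Over 32817 RefSeq promoter windows of that length the median was 6 CG dinucleotides and 52.4% G or C. The windows of Wnt4 (85.2%), Wnt6 (79.6%), Wnt7a (77.6%), Wnt11 (70.8% at its outer start, 56.8% at its inner one) and Wnt3 (68.0%) were also above that median. The TCF/LEF core TCAAAG, searched on both strands as TCAAAG or CTTTGA, was in 13.8% of all windows. Among the 7 genes it was found in that of Wnt11 alone, once, within chr7:98834862-98835111 on the plus strand, printed here with 12 bases to either side and the core in capitals.
Wnt11: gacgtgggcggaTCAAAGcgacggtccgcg
The androgen receptor half-site AGAACA (or TGTTCT) was in 16.1% of all windows and in 0 of those of the 7 genes. A match of these letters is a description of the window only.

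Most of the Wnt ligand RNA came from Wnt10a, Wnt7b and Wnt4 in every medium. These genes together made up 90.8% ± 1.9 (SD, n = 3) of the summed FPKM of the 10 genes in BM, 91.0% ± 0.596 in R and 96.3% ± 0.837 in RD7. The summed level was 130.1, 101.8 and 117.8 FPKM in BM 1 to 3, 121.7, 119.9 and 116.2 in R 1 to 3, and 124.5, 133.1 and 116.7 in RD7 1 to 3. The groups overlap in this sum of FPKM, while the genes that make it up changed places. The overlap of R and RD7 depends on the scaling between libraries. Median-of-ratios scaling divides the R libraries by 1.029 to 1.052 and the RD7 libraries by 0.9409 to 0.993. Each RD7 library is then above each R library, and BM overlaps both. The sum was not tested. Wnt10a led in BM and R, and Wnt4 had the highest mean in RD7, where its range overlapped that of Wnt10a. Wnt7b was below Wnt10a in each group, with overlapping ranges in BM only. In BM the order below these was Wnt5a, Wnt7a, Wnt9a, Wnt6, Wnt11, Wnt3a and Wnt3, and of these neighbors only Wnt5a and Wnt7a overlapped. In R, Wnt5a stayed clear of the rest, and Wnt7a, Wnt3a, Wnt6 and Wnt9a formed a run of neighbors with overlapping ranges between 0.765 and 1.58 FPKM. In RD7, Wnt9a and then Wnt6 came next, and Wnt7a, Wnt11, Wnt5a and Wnt3a followed with ranges that overlapped from each to the next.

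**Figure D1:**
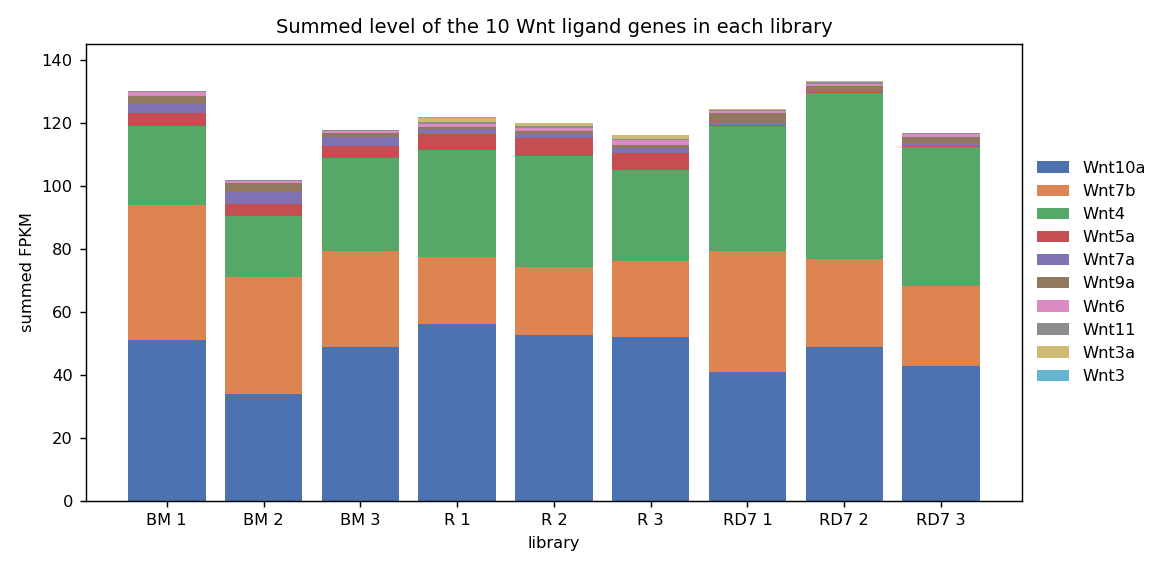
Summed FPKM (vertical axis) of the 10 Wnt ligand genes in each of the 9 libraries (horizontal axis), with each color standing for 1 gene. The bars reach 101.8 to 133.1 FPKM, the Wnt4 block is tallest in the RD7 libraries, and the Wnt5a block is almost gone there.

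R against BM gives the change in ligand RNA that came with R-spondin1. Wnt3a rose, Wnt7a and Wnt7b fell, and the other 6 genes tested were not called. So 3 of 9 genes tested were called (1 higher and 2 lower), where 10.0% of all 15867 genes were called, 4.39% higher and 5.64% lower. Wnt3, with few reads, was not tested. The median log2 fold change of the 9 genes was 0.28, beside 0.02 over all genes. The call of Wnt7b was near the threshold and was lost in 7 of 17 other fits, as described with that gene. Its log2 fold change stayed at -0.83 to -0.58 over these fits. Without BM 3, 5 of the 9 were called, Wnt4 (higher) and Wnt9a (lower) being added, and calls among all genes went from 1591 to 3402. They numbered 930 without R 1 and 940 without R 2.

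Wnt3a, a strong activator of β-catenin signaling, was nearly absent in BM and at a measurable level in R. It stood at 0.111, 0.0900 and 0.0369 FPKM in BM 1 to 3, which are 2, 6 and 2 reads, and at 1.32, 1.09 and 1.19 FPKM in R 1 to 3, which are 58, 70 and 71 reads. Every R library was far above every BM library. The mean rose 15.1-fold, and the ratio of the pooled CPM was 16.4 with a 95% interval of 8.75 to 34.8 that covers counting error only. The log2 fold change was 1.55 ± 0.18 (limma adjusted p = 3.1e-04), with 0.5 FPKM added to each value, which shrinks the change of a gene this low. It was 1.03 to 3.91 over the other fits, lowest with 1 FPKM added and highest with limma-voom on the reads. Wnt3a passed the filter on low values through the R libraries, where it was high. Its near relative Wnt3 had 0, 1 and 0 reads in BM, 4, 0 and 3 in R and 0 in each RD7 library, too few to compare.

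Wnt7a and Wnt7b, close paralogs, both fell. Wnt7a stood at 2.96, 3.73 and 2.78 FPKM in BM 1 to 3 and at 1.19, 1.27 and 1.31 in R 1 to 3. The R libraries lay close together and all below BM. The mean was 2.51-fold lower in R (log2 fold change -1.05 ± 0.16, limma adjusted p = 0.0021), and the call held in each of the 17 other fits, at an adjusted p of up to 0.0144. Wnt7b, the more abundant of the pair, stood at 43.1, 37.0 and 30.5 FPKM in BM and at 21.2, 21.6 and 24.1 in R. Again no R library reached the lowest BM library, BM 3. The mean was 1.65-fold lower (log2 fold change -0.70 ± 0.18, limma adjusted p = 0.034). That call was lost in 7 of 17 other fits, at a limma adjusted p of 0.122 without BM 1, 0.0897 without BM 2, 0.131, 0.126 and 0.0647 without R 1, R 2 or R 3, 0.0731 with no filter on low values and 0.0507 with a replicate block. AU022754, on the other strand, shares 6.61% of the annotated exon bases of Wnt7b, and reads of the pair cannot be told apart because the kit does not mark strand.

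The other ligands had smaller differences between R and BM. Wnt9a, the head-to-head neighbor of Wnt3a, stood at 2.31, 2.71 and 1.47 FPKM in BM and at 1.09, 1.06 and 1.11 in R. The groups did not overlap, and R was lower in mean by 1.99-fold, with a log2 fold change of -0.72 ± 0.23 that was not called (limma adjusted p = 0.078, 0.0161 to 0.225 over the other fits). Without BM 3, the lowest BM library, it was called. Wnt5a stood at 4.22, 3.95 and 3.70 FPKM in BM and at 4.98, 5.76 and 5.53 in R, again without overlap, and was not called (0.41 ± 0.15, limma adjusted p = 0.115). It was called as higher with the trend on gene length removed (limma adjusted p = 0.0227).

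Among the abundant ligands, Wnt4 and Wnt10a were not called for R-spondin1. Wnt4 stood at 25, 19.5 and 29.6 FPKM in BM and at 34.1, 35.1 and 29.0 in R, so that R 3 fell below BM 3. Its log2 fold change was 0.42 ± 0.17 (limma adjusted p = 0.170), and without BM 3 it was called, at 0.0424. Wnt10a, a ligand of skin appendages, teeth and other epithelia, stood at 50.9, 33.9 and 48.8 FPKM in BM and at 56.1, 52.6 and 52.0 in R. BM 2 was low and the other libraries were near each other. The log2 fold change of Wnt10a was 0.28 with a 95% interval of -0.08 to 0.65 (limma adjusted p = 0.293). Wnt6, just upstream of Wnt10a, was far lower, at 1.33, 0.605 and 0.721 FPKM in BM and 0.943, 0.765 and 1.58 in R, with overlapping groups (interval -0.30 to 0.72, limma adjusted p = 0.590). Wnt11 stood at 0.223, 0.380 and 0.259 FPKM in BM and at 0.697, 0.592 and 0.413 in R, on 6 to 57 reads per library. The groups of Wnt11 did not overlap, but the difference was not called (0.43 ± 0.19, limma adjusted p = 0.176). Gm8398, on the other strand, shares 8.80% of the exon bases of Wnt11.

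**Figure D2:**
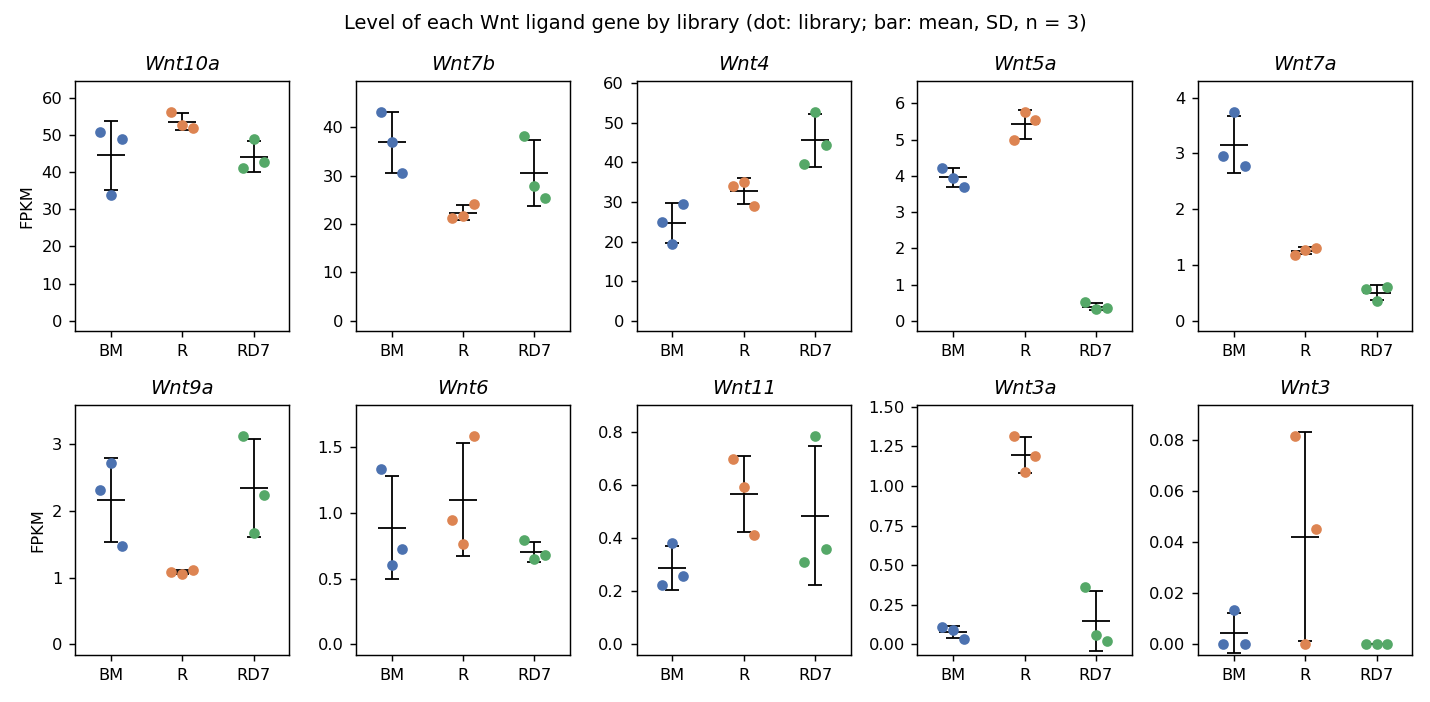
FPKM (vertical axis, its own scale for each gene, starting near 0) of the 10 Wnt ligand genes in BM, R and RD7 (horizontal axis). Dots are libraries, and bars give the mean and SD of 3 libraries. Wnt3a is high in the R libraries only (1.09 to 1.32 FPKM), Wnt5a is lowest in RD7 (0.328 to 0.507 FPKM), and Wnt7a steps down from BM to R to RD7.

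RD7 against R gives the change that came with DHT where R-spondin1 was present. Wnt5a, Wnt3a and Wnt7a fell, Wnt9a rose, and Wnt4, Wnt6, Wnt7b, Wnt10a and Wnt11 were not called. That is 4 of 9 genes tested (1 higher and 3 lower), where 31.1% of all genes were called, 13.4% higher and 17.7% lower, so calls were common among all genes in this comparison. Of all calls 43.0% were higher, and 53.6% with median-of-ratios scaling between libraries. The median of the 9 genes was -0.28, beside -0.09 over all genes. All calls numbered 4937, and 3203 or 3186 without R 2 or R 3. These values and those of R against BM share the R libraries. In bulk RNA, a loss of cells of 1 type and a loss of RNA per cell cannot be told apart.

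Wnt5a, the ligand best known for planar polarity and Ror signaling, changed most of the 9 on the log2 scale. It stood at 4.98, 5.76 and 5.53 FPKM in R 1 to 3 (622, 1047 and 937 reads) and at 0.507, 0.328 and 0.341 in RD7 1 to 3 (71, 49 and 45 reads). The groups were far apart, and RD7 was also below every BM library. The mean was 13.8-fold lower (log2 fold change -2.73 ± 0.15, limma adjusted p = 4.4e-07), and the call held in all 17 other fits. Of the summed FPKM of the 10 ligands, Wnt5a held 4.55% ± 0.396 in R and 0.315% ± 0.0831 in RD7. Gm2670, on the other strand, shares 4.58% of the exon bases of Wnt5a.

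Wnt3a was at a low level with DHT. Beside 1.32, 1.09 and 1.19 FPKM in R it stood at 0.364, 0.0569 and 0.0214 in RD7 1 to 3, which are 18, 3 and 1 reads. RD7 1 held most of these reads, and even it was below every R library. The mean was 8.12-fold lower, the ratio of pooled CPM was 8.01-fold lower with a 95% counting interval of 5.14 to 13.1, and the log2 fold change was -1.43 ± 0.18 (limma adjusted p = 2.1e-04, and -3.68 to -0.95 over the other fits). RD7 and BM overlapped in Wnt3a (log2 fold change 0.12, 95% interval -0.27 to 0.52, limma adjusted p = 0.580).

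Wnt7a was lower still. It stood at 1.19, 1.27 and 1.31 FPKM in R and at 0.564, 0.347 and 0.597 in RD7, with no overlap. The mean was 2.5-fold lower (log2 fold change -0.82 ± 0.16, limma adjusted p = 0.0041), a call that held in all 17 other fits at -1.36 to -0.59. Its paralog Wnt7b did not follow. Wnt7b stood at 21.2, 21.6 and 24.1 FPKM in R and at 38.2, 27.9 and 25.4 in RD7, where each RD7 library was above each R library, with a log2 fold change of 0.42 ± 0.18 that was not called (limma adjusted p = 0.099, 0.0144 to 0.271 over the other fits). With the trend on gene length removed, Wnt7b was called as higher. The ratio of Wnt7b to Wnt7a was 14.6, 9.90 and 11 in BM 1 to 3, 17.9, 17.0 and 18.4 in R and 67.8, 80.5 and 42.5 in RD7, with no overlap between groups.

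Wnt9a rose with DHT, opposite to its neighbor Wnt3a. It stood at 1.09, 1.06 and 1.11 FPKM in R and at 3.12, 1.67 and 2.24 in RD7, so that the RD7 libraries were spread but all higher. The mean rose 2.16-fold (log2 fold change 0.81 ± 0.23, limma adjusted p = 0.022). The call was lost in 6 of 17 other fits, at a limma adjusted p of 0.0576, 0.0667 and 0.0605 without R 1, R 2 or R 3, 0.0663 and 0.0593 without RD7 1 or RD7 3, and 0.0502 with no filter on low values. Across the media the level of Wnt3a relative to Wnt9a thus changed. The ratio of Wnt3a to Wnt9a was 0.0482, 0.0332 and 0.0251 in BM 1 to 3, 1.21, 1.03 and 1.07 in R, and 0.117, 0.0341 and 0.00957 in RD7. Only in the R libraries did Wnt3a reach the level of Wnt9a, and in BM and RD7, whose ratios overlap, it was at most 0.117 of it.

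**Figure D3:**
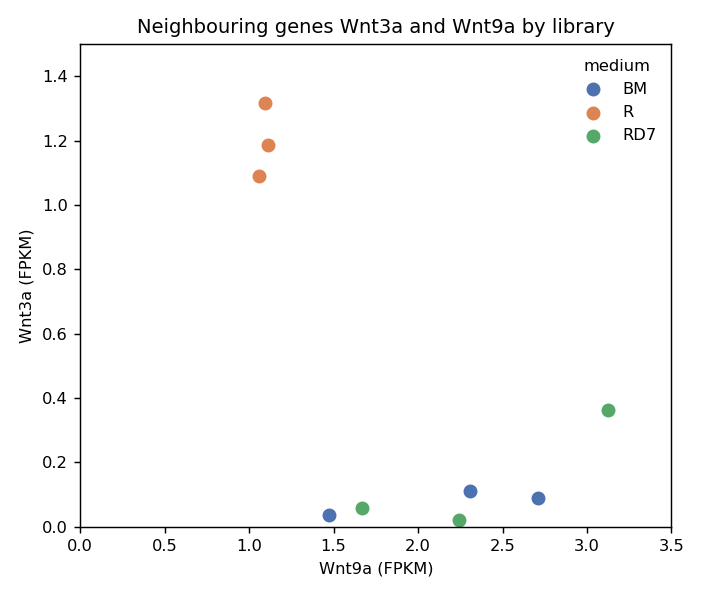
Level of Wnt3a (vertical axis, FPKM) against that of its neighbor Wnt9a (horizontal axis, FPKM), with 1 dot for each of the 9 libraries, colored by medium. The R libraries stand apart at 1.09 to 1.32 FPKM of Wnt3a and 1.06 to 1.11 of Wnt9a, while BM and RD7 libraries lie at up to 0.364 of Wnt3a and 1.47 to 3.12 of Wnt9a.

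The ligands left were not called between RD7 and R. Wnt4 stood at 34.1, 35.1 and 29.0 FPKM in R and at 39.6, 52.7 and 44.4 in RD7, with each RD7 library above each R library. Its log2 fold change was 0.47 ± 0.17 (limma adjusted p = 0.068, 0.0242 to 0.219 over the other fits), and it was called with median-of-ratios scaling (0.0382), with R and RD7 fitted alone (0.0293), without BM 2 (0.0400) or BM 3 (0.0358) and with the length trend removed (0.0242). Wnt10a stood at 56.1, 52.6 and 52.0 FPKM in R and at 41.0, 48.8 and 42.7 in RD7, each RD7 library being lower. The log2 fold change of Wnt10a was -0.28 with a 95% interval of -0.64 to 0.08 (limma adjusted p = 0.220). Wnt6 (0.790, 0.645 and 0.675 FPKM in RD7) and Wnt11 (0.311, 0.785 and 0.358) overlapped with R, with intervals of -0.89 to 0.13 and -0.55 to 0.27.

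RD7 against BM gives both additions together, and shares its libraries with the comparisons above. Wnt4 rose, Wnt5a and Wnt7a fell, and the other 6 genes tested were not called. These 3 of 9 calls (1 higher and 2 lower) stand beside 47.0% of all genes called, 21.6% higher and 25.4% lower, so the share among the ligands was no larger than that of all genes. All calls numbered 7455, and 4836 without RD7 2. Of them 45.9% were higher, and 52.3% with median-of-ratios scaling. Wnt4, which rose in mean from 24.7 ± 5.04 FPKM in BM over 32.7 ± 3.29 in R to 45.5 ± 6.61 in RD7, was called here alone (1.85-fold, log2 fold change 0.88 ± 0.17, limma adjusted p = 0.0034, up to 0.0171 in the 17 other fits). Its share of the summed FPKM of the 10 ligands was 21.1% ± 3.42, 27.4% ± 2.24 and 36.5% ± 4.10. Wnt7a was 6.28-fold lower in RD7 than in BM (log2 fold change -1.87 ± 0.16, limma adjusted p = 1.6e-05), and Wnt5a 10.1-fold lower (-2.33 ± 0.15, limma adjusted p = 1.5e-06). Wnt10a (0.01, 95% interval -0.36 to 0.37), Wnt9a (0.09, -0.41 to 0.60), Wnt6 (-0.17, -0.68 to 0.34), Wnt11 (0.30, -0.12 to 0.71) and Wnt7b (-0.28, -0.68 to 0.12) were not called, and RD7 overlapped BM for each of these genes.

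**Figure D4:**
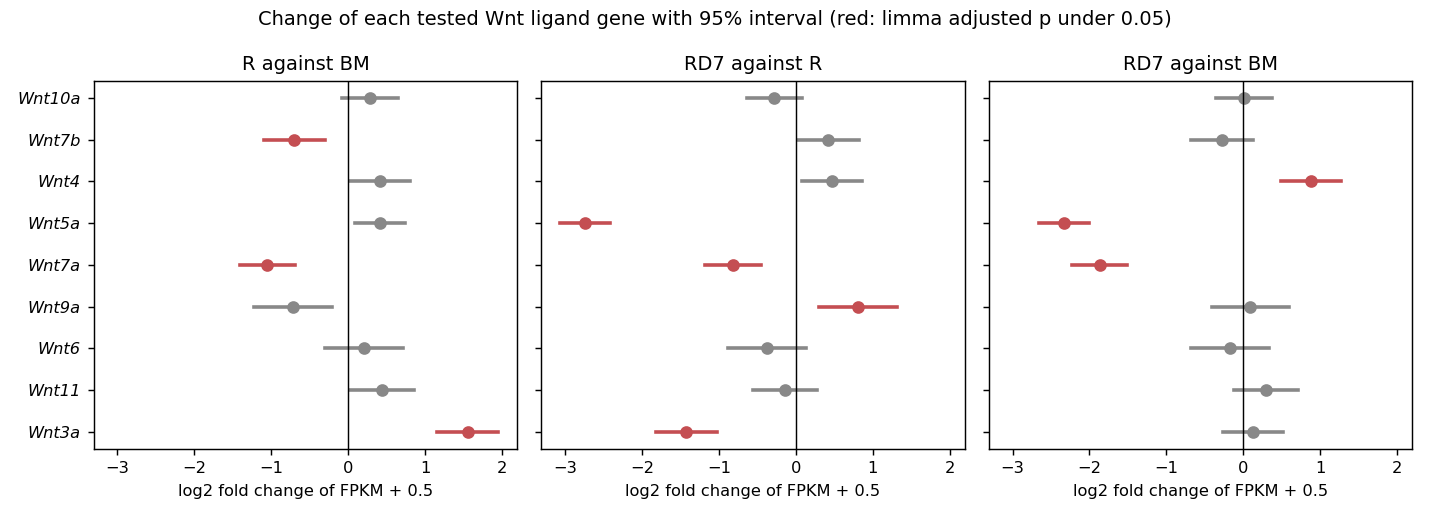
Log2 fold change of FPKM + 0.5 (horizontal axis) with its 95% interval for the 9 tested Wnt ligand genes (vertical axis) in each comparison. Red marks a limma adjusted p under 0.05, as for Wnt3a at 1.55 in R against BM and -1.43 in RD7 against R, and for Wnt5a at -2.73 in RD7 against R.

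The genes most like the called ligands were looked for among the other 15866 genes tested, as the smallest root-mean-square (RMS) difference of log2 values centered on their mean over the 9 libraries. For Wnt7a this was Dkk3, a secreted protein of the Dickkopf family, at 9.66 ± 1.33 FPKM in BM, 4.18 ± 0.171 in R and 2.31 ± 0.611 in RD7 (RMS difference 0.11, where Wnt7a itself varied by 0.78). For Wnt5a it was Gypc, a membrane sialoglycoprotein gene, at 3.39 ± 0.457, 3.68 ± 0.506 and 0.134 ± 0.0408 FPKM (0.20, beside 1.21). For Wnt3a it was Tmprss11g, a gene of the membrane serine protease family, at 0.836 ± 0.0774, 3.65 ± 0.157 and 0.986 ± 0.193 FPKM (0.14, beside 0.73). For Wnt4 and Wnt7b the nearest were Gm29054 (0.06) and Lpin1 (0.10).

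Of the 9 Wnt genes outside the list, Wnt5b and Wnt10b alone passed the filter. The mean of Wnt5b was above those of Wnt9a, Wnt6, Wnt11, Wnt3a and Wnt3 in BM. In R it was above those and Wnt7a. Wnt5b, the paralog of Wnt5a, was at 2.56 ± 0.396 FPKM in BM, 1.5 ± 0.650 in R and 0.452 ± 0.0824 in RD7, and fell with DHT (log2 fold change -1.03, limma adjusted p = 0.0066). Wnt10b, at 0.473 ± 0.179, 0.348 ± 0.0762 and 0.0648 ± 0.0380 FPKM, fell as well (-0.58, limma adjusted p = 0.012). Wnt9b, singled out after its values were seen, had 3, 22 and 14 reads in BM 1 to 3 and 0 in each R and RD7 library, at least 15.7-fold lower in R and 13.9-fold lower in RD7 taking 3 reads over the group as the floor. The other 6 had at most 5 reads over any group.

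The counts in the pathway lists stand beside the shares of all genes called, 10.0% in R against BM (4.39% higher and 5.64% lower) and 31.1% in RD7 against R (13.4% higher and 17.7% lower). Of 8 genes tested for making and releasing Wnt proteins, limma called 0 in R against BM, 1 had an unadjusted p under 0.05 and limma-voom called 0. With DHT, 1 of the 8 fell. The one that fell was Wls, the carrier of all lipid-modified Wnts, at 40.2 ± 3.96 FPKM in BM, 35.5 ± 2.00 in R and 24.6 ± 1.24 in RD7 (log2 fold change -0.52, limma adjusted p = 0.0103 for RD7 against R). Porcn stood at 3.87 ± 0.459, 4.14 ± 0.151 and 4.23 ± 0.386 FPKM and was not called. Of 18 receptors and co-receptors, 2 rose and 2 fell with R-spondin1, and 1 rose and 8 fell with DHT, where the median log2 fold change of the list was -0.45 beside -0.09 over all genes. Ror2, a receptor of Wnt5a, fell from 12.1 ± 0.931 to 7.19 ± 2.17 FPKM with DHT (-0.74, limma adjusted p = 0.029), Fzd7 from 30.2 ± 4.45 to 10.1 ± 3.26 (-1.58, limma adjusted p = 9.1e-04) and Fzd10 from 4.31 ± 1.22 to 0.911 ± 0.322 (-1.76, limma adjusted p = 3.4e-04), and Fzd9 rose from 0.568 ± 0.132 to 1.62 ± 0.136 (0.99, limma adjusted p = 7.7e-04). Of 15 planar polarity and related genes, 1 (Camk2d) fell with R-spondin1. With DHT 0 rose and 5 fell, beside 13.4% of all genes called higher and 17.7% called lower. The median log2 fold change of this list with DHT was -0.37, beside -0.09 over all genes. Limma-voom called 1 higher and 7 lower with DHT. The largest changes among the 5 were in Vangl1 (42.4 ± 1.9 to 21.3 ± 1.84 FPKM) and Vangl2 (8.05 ± 0.566 to 4.11 ± 0.953), membrane proteins of the polarity complex, and in Celsr1 and Prickle2.

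Secreted antagonists and β-catenin targets also moved. Their counts stand beside 10.0% of all genes called with R-spondin1 (4.39% higher and 5.64% lower). With DHT, 31.1% of all genes were called (13.4% higher and 17.7% lower). Of 8 antagonists or ligand-inactivating enzymes tested, 3 rose and 2 fell with R-spondin1 and 6 fell with DHT. Notum, which removes the lipid from Wnt proteins, was at 0.184 ± 0.108, 1.67 ± 0.458 and 0.143 ± 0.0818 FPKM in BM, R and RD7, rising with R-spondin1 (log2 fold change 1.66, limma adjusted p = 3.0e-04) and falling with DHT (-1.74, limma adjusted p = 8.6e-05). Wif1, a secreted protein that binds Wnt ligands, was far more abundant, at 6.24 ± 0.661, 104.2 ± 6.83 and 73.3 ± 6.57 FPKM, and rose with R-spondin1 (3.96, limma adjusted p = 2.3e-07). Sfrp1, a soluble Frizzled relative, was at 1.34 ± 0.227, 1.20 ± 0.0801 and 0.155 ± 0.0742 FPKM and fell with DHT (-1.38, limma adjusted p = 6.2e-05). Of 6 R-spondin, receptor and ligase genes tested, 2 rose with R-spondin1 and 3 fell with DHT. Of 16 β-catenin targets, 8 rose and 1 fell with R-spondin1, and 3 rose and 11 fell with DHT. The median log2 fold change of these targets was 0.51 in R against BM and -0.80 in RD7 against R, beside 0.02 and -0.09 over all genes. Axin2, a feedback inhibitor and widely used readout of β-catenin, was at 0.351 ± 0.0381, 4.28 ± 1.17 and 3.97 ± 0.595 FPKM. It rose with R-spondin1 (2.46, limma adjusted p = 1.8e-05) and was not called with DHT (-0.08, limma adjusted p = 0.793). Sp5, the target that fell with R-spondin1 (-1.26, limma adjusted p = 5.8e-04), was among those that rose with DHT (1.49, limma adjusted p = 6.9e-05). Its levels were 7.21 ± 0.889, 2.72 ± 0.325 and 8.60 ± 1.13 FPKM. The largest of the 11 falls with DHT was in Apcdd1 (22.6 ± 0.861 to 3.54 ± 1.56 FPKM, -2.58, limma adjusted p = 7.5e-05). Notum and Lgr5 (0.894 ± 0.157 to 0.0132 ± 0.0146 FPKM, -1.44, limma adjusted p = 4.5e-06) came next. These lists share members such as Notum, Lgr5 and Rnf43.

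Markers of other cell types moved between the same groups. The 5 luminal markers summed to 2105 to 2653 FPKM in BM, 1688 to 1987 in R and 1733 to 2140 in RD7, and the 5 basal ones to 7037 to 7915, 9689 to 10296 and 8312 to 9413. Of the luminal markers 1 fell in R against BM, and 2 rose and 2 fell in RD7 against R. Of the basal markers 1 rose in R against BM and 3 fell in RD7 against R. The 12 mesenchymal markers summed to 18.6 to 26.9 FPKM in BM, 24.6 to 30.6 in R and 67.3 to 95 in RD7, where Dcn alone had a mean of 76.6, and without Dcn the other 11 summed to 14.7 to 20.6, 5.08 to 6.88 and 2.76 to 3.37. Acta2 of smooth muscle was at 12.4 ± 3.43 FPKM in BM, 3.69 ± 0.984 in R and 1.29 ± 0.285 in RD7, and Myh11 was at 0.00544 or less. Of the 9 mesenchymal markers tested, 1 (Dcn) rose and 3 fell in R against BM and 1 (Dcn) rose and 5 fell in RD7 against R, beside the 10.0% and 31.1% of all genes called. The urothelial markers summed to 208.8 to 317.0 FPKM in BM, 37.9 to 45.6 in R and 21 to 25.4 in RD7. Of these 5 markers 1 rose and 3 fell in R against BM and 1 rose and 2 fell in RD7 against R. Upk1a and Upk1b fell in both, and Krt20 rose from 0.756 ± 0.0559 FPKM in BM to 5.39 ± 0.703 in R. Upk3a, lower in R against BM and higher in RD7 against R, was at 92.9 ± 26.7, 1.57 ± 0.294 and 2.91 ± 0.761 FPKM. The 6 immune markers summed to 0.856 to 1.68 FPKM in BM, 2.89 to 3.76 in R and 2.08 to 4.13 in RD7. Both of those tested, Cd68 (1.21 ± 0.364 FPKM in BM and 2.64 ± 0.434 in R) and Lyz2 (listed at 0 in BM, 0.648 ± 0.00709 in R), rose in R against BM and in RD7 against BM, and Ptprc of leukocytes was at 0.00215 or less. The part of these cell types in the ligand levels was not tested. Summed levels were 0.158 to 0.379 FPKM for 4 endothelial markers, up to 0.691 for 4 neuroendocrine and up to 1.07 for 4 seminal vesicle markers over all libraries.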

How the data were processed

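RNA from 9 organoid libraries was measured, 3 in each medium, grouped by sample title. Polyadenylated RNA was copied and amplified with a SMART-Seq kit, per the labels' protocols, with no molecular identifiers, so counting intervals cover counting error only. The authors deposited FPKM values, 1 per gene and library, per the file headers. The submitters' processing notes list edgeR 3.24.1, featureCounts, STAR 2.6.1a, CASAVA 1.9 and the build GRCm38, without their roles. The annotation release, strand setting and filters are not given in the sources used here.

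Symbols and exon lengths came from GENCODE M21, which held 99.5% of the gene identifiers. Reads were read back as FPKM times length over the library's smallest step. They were whole within 0.01 of a read for 22971 of 26813 genes above 0, and a length was fitted for the other 3842. The reads read back came to at least 99.988% of each library's total. This recovery served depth, the filter and 1 alternative fit.

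The limma 3.58.1 package (R 4.3.3) was run on log2(FPKM + 0.5) over all 9 libraries, with 1 mean per group, 6 residual degrees of freedom and trended, robust empirical Bayes. Tests were two-sided and adjusted over all 15867 genes. The fit was tested on simulated data. Exact intervals (Clopper-Pearson) gave the counting intervals of read ratios. Other fits used a pseudocount of 0.1 or 1 FPKM, no filter, median-of-ratios scaling, limma-voom, a replicate block, the compared groups alone, each library left out and, chosen after seeing the data, removal of the trend on gene length. Tables and plots used Python 3.11.15, pandas 2.3.3, scipy 1.17.1 and matplotlib 3.10.9.

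All 10 Wnt genes were named with their values. From each pathway list at most 4 called genes with the largest changes per comparison were named, and for each called ligand the gene nearest in profile, which for Wnt9a is not reported here. Porcn and cell type markers were named besides. The genes and lists were chosen with earlier results of these data known.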

Additional observations from a re-analysis of the deposited data

How the results depend on the processing

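The 10 calls of single ligands kept their direction in all 170 refits (17 each), and 13 of these lost a call, 7 for Wnt7b in R against BM and 6 for Wnt9a in RD7 against R. The 17 ligand results not called gained a call in 10 of 289 refits. Those that changed sign were small. Leaving out each library in turn, the log2 fold change of Wnt6 ranged from -0.00103 to 0.43 in R against BM and from -0.32 to 0.0492 in RD7 against BM. In RD7 against BM it ranged from -0.18 to 0.11 for Wnt10a, -0.11 to 0.27 for Wnt9a and -0.10 to 0.26 for Wnt3a. With the length trend removed, Wnt11 was at 0.0148 in RD7 against R and Wnt10a at -0.13 in RD7 against BM, and 5 ligands in place of 3 were called in R against BM, Wnt5a and Wnt9a being added. The ligands called numbered 2 to 5 in R against BM, 3 to 5 in RD7 against R and 3 in RD7 against BM with a library left out. All genes called then ranged from 930 to 3402 (highest without BM 3, lowest without R 1), 3186 to 5739 and 4836 to 8519. The cause was not tested. The mean summed level in R was 114.7 FPKM with median-of-ratios scaling, where each RD7 library was above each R library.

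Whether the replicate numbers pair the libraries is not stated. Same-numbered libraries correlated at -0.521 to 0.272 in their deviations from the group means. With 3 libraries per group these correlations cannot settle whether such libraries share an origin. With the replicate number as a block, 1161, 3884 and 6298 genes and 2, 4 and 3 ligands were called in the same order of comparisons. Wnt3a, Wnt3 and Wnt11 rest on few reads, so their levels in BM and RD7 are known only roughly.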
